A study of Homo sapiens with 6 samples.

Results

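The genes described here encode integrin subunits of epithelial cells and chains of laminin-332, the basement membrane protein that several of these integrins bind. They are 9 of the 27852 gene symbols in the deposited table: LAMA3, LAMB3, ITGA6, ITGB4, ITGA2, ITGA3, ITGB1, ITGAV and ITGB6. They were chosen by name, each gene's value being the sum of its transcripts with every transcript counted once. All 9 passed the filter on low values, which 13236 genes passed.

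The cells were 3 established human oral squamous carcinoma lines (HSC3, HSC4 and SAS), from which poly(A) RNA was sequenced. Each was grown in HPLM, a medium made to resemble human plasma, and in DMEM, a standard culture medium, both with heat-inactivated fetal bovine serum and an Antibiotic-Antimycotic. Every combination gave 1 library, 6 in all. The comparison of HPLM with DMEM therefore uses the 3 lines as its replicates, and the comparison of lines uses the 2 libraries of a line, which differ in medium. Columns taken as DMEM name the line alone, with no medium. The labels do not say whether cultures were separate, and p-values measure only the spread between these libraries.

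Library totals lay between 17715962 and 20171750 estimated counts. All 8 epithelial markers examined were above 1 CPM in some library, with KRT14 at 10.8 CPM in HPLM and 4.4 CPM in DMEM in HSC4, its lowest values. Of 6 fibroblast markers 2 were above 1 CPM in some library, and their summed level was 3.24 to 5.64 CPM in HPLM and 1.78 to 5.97 CPM in DMEM, with COL3A1 at 0. Of 4 endothelial markers 1 was above 1 CPM in some library, with sums of 0.308 to 2.49 CPM in HPLM and 0.471 to 1 CPM in DMEM and KDR at 0. Of 6 leukocyte markers 3 were, with sums of 4.49 to 5.64 CPM in HPLM and 3.01 to 7.28 CPM in DMEM.

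Laminin-332 is a heterotrimer, with α3 and β3 among its chains, that basal epithelial cells lay down beneath themselves. Integrins are αβ receptor dimers: α6β4 holds laminin-332 in hemidesmosomes and ties it to keratin filaments, α3β1 binds the same laminin at actin-linked adhesions, α2β1 is mainly a collagen receptor, and αvβ6 binds fibronectin and tenascin and activates latent TGF-β. The β1 subunit pairs with many α subunits, and the β4 and β6 subunits each pair with 1, so a subunit's RNA does not give the amount of a receptor.

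Levels are given as CPM, the usual count scaled to library size, here after TMM scaling. The deposited values are corrected for transcript length, so CPM can be set side by side between genes as well as between libraries. A gene was called at a Benjamini-Hochberg adjusted p under 0.05 in edgeR's quasi-likelihood test, and fold changes are log2 with their standard error (SE).

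**Figure D1:**
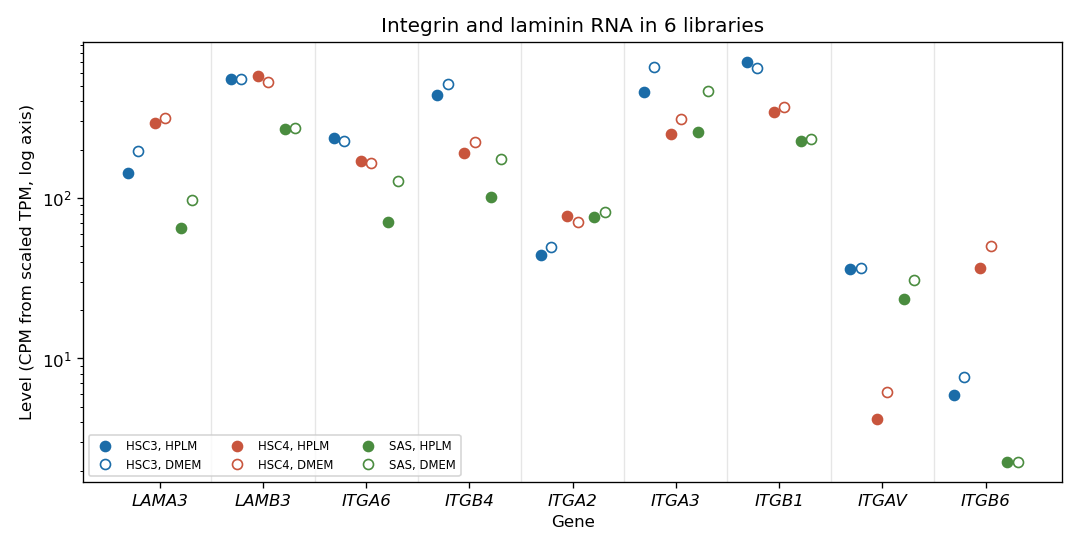
Level of each of the 9 genes (CPM, log axis) in the 6 libraries, with filled circles for HPLM, open circles for DMEM and a colour per line. Most genes separate by line more than by medium: ITGAV is lowest in HSC4, at 4.21 CPM in HPLM and 6.16 CPM in DMEM, where ITGB6 is highest, at 36.9 CPM in HPLM and 50.02 CPM in DMEM.

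Between lines, most of the 9 genes differed. In bulk RNA, fewer cells expressing a gene and less RNA per cell cannot be told apart. In HSC3 against HSC4, 7 of 9 were called, 4 higher and 3 lower, where 37.4% of all genes tested were called. In HSC3 against SAS, 8 of 9 were called, 7 higher and 1 lower, where 39.4% of all genes were. In HSC4 against SAS, 7 of 9 were called, 6 higher and 1 lower, where 41.3% of all genes were. ITGB1, ITGB4, ITGB6 and LAMA3, 4 of 9, were called in all 3 pairs of lines, as were 8.8% of all genes. The median log2 fold change of the 9 genes was 0.48, 1.08 and 0.63 in those pairs, and that of all genes tested was 0.00, 0.01 and 0.01. Summed over the 9 genes, the level was lowest in SAS, at 1093 CPM in HPLM and 1491 CPM in DMEM. It was 2614 CPM in HPLM and 2886 CPM in DMEM in HSC3, and 1940 CPM in HPLM and 2039 CPM in DMEM in HSC4.

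**Figure D2:**
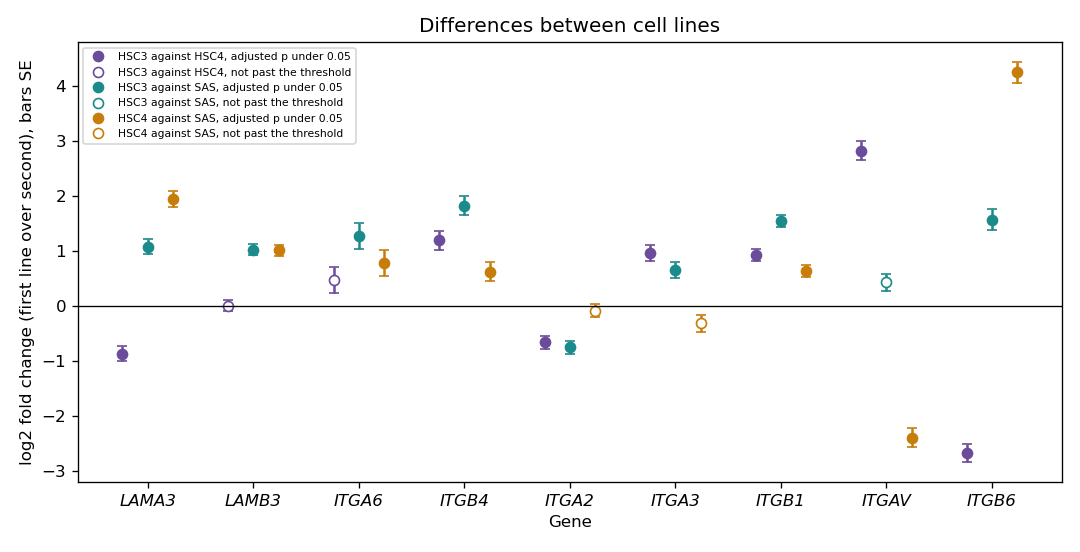
Log2 fold change between lines for each gene, the first-named line over the second, with bars for SE. Filled circles passed an adjusted p of 0.05, and ITGB6 in HSC4 against SAS lies farthest from 0, at 4.24.

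Between media, none of the 9 genes was called, where 0.00756% of all genes tested (1 gene) were. At an unadjusted p under 0.05, 3 were lower in HPLM (ITGA3, LAMA3 and ITGB4), where 4.55% of all genes were, and none was higher. ITGA3, ITGAV, ITGB4 and LAMA3 were lower in HPLM in all 3 lines, 4 of 9, where 17% of all genes were. DESeq2 called 1 of the 9, ITGA3, where it called 0.96% of all genes. With limma-voom 0 of the 9 and 9 of all 13236 genes were called, and with limma-trend 0 of the 9 and 0 of all genes. The median log2 fold change was −0.29 over the 9 genes and 0.00 over all genes tested. In SAS the median ratio of HPLM to DMEM over the 9 genes was −0.38 on the log2 scale, in HSC3 −0.16 and in HSC4 −0.11, and these have 1 library per medium and no replicate check.

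**Figure D3:**
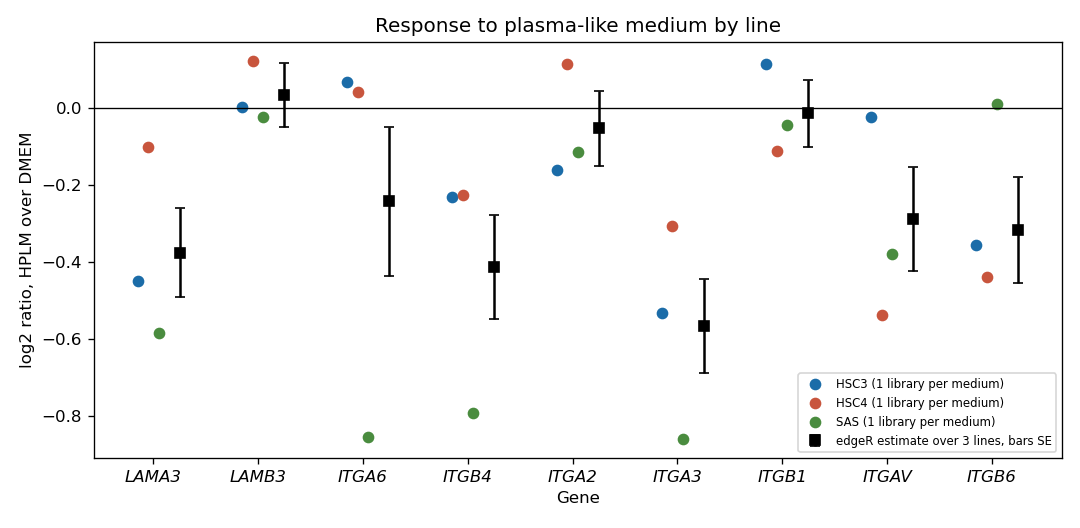
Log2 ratio of HPLM over DMEM for each gene in each line (circles, 1 library per medium) and the edgeR estimate over the 3 lines (black squares, bars SE). SAS has the lowest ratio for 5 of the 9 genes, with ITGA3 at −0.86, ITGA6 at −0.85 and ITGB4 at −0.79. The share of all genes with their lowest ratio in SAS was not counted.

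LAMA3 encodes the α3 chain, which carries the integrin-binding end of laminin-332. The gene lies on chromosome 18, 23689443 to 23956222 (plus strand, GRCh38, GENCODE 29). LAMA3 had 144 CPM in HPLM and 197 CPM in DMEM in HSC3, 295 CPM in HPLM and 316 CPM in DMEM in HSC4, and 64.8 CPM in HPLM and 97.1 CPM in DMEM in SAS. The lines did not overlap: HSC4 was highest, then HSC3, then SAS. LAMA3 was lower in HSC3 than in HSC4 by −0.86 ± 0.14 (SE; edgeR adjusted p = 0.00648). It was higher in HSC3 than in SAS by 1.08 ± 0.14 (edgeR adjusted p = 0.00307) and higher in HSC4 than in SAS by 1.94 ± 0.15 (edgeR adjusted p = 0.000689). The log2 fold change in HPLM against DMEM was −0.37 ± 0.12 (edgeR adjusted p = 0.41), with lower values in HPLM in 3 of 3 lines.

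LAMA3 has a short and a long coding form that start at different promoters. The short form, with 38 exons, gave between 83.1% and 86.8% of the gene's level. Of the short and long forms together, the long form with 75 exons made 2.63% in HPLM and 1.81% in DMEM in HSC3, 1.3% in HPLM and 1.22% in DMEM in HSC4, and 2.48% in HPLM and 1.83% in DMEM in SAS. The short form was thus the main one in every library.

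LAMB3 encodes the β3 chain and lies on chromosome 1, 209614870 to 209652466 (minus strand). LAMB3 had 552 CPM in HPLM and 551 CPM in DMEM in HSC3, 572 CPM in HPLM and 526 CPM in DMEM in HSC4, and 271 CPM in HPLM and 275 CPM in DMEM in SAS. HSC3 and HSC4 overlapped, and both SAS libraries were lower. LAMB3 was higher in HSC3 than in SAS by 1.02 ± 0.10 (SE; edgeR adjusted p = 0.0014) and higher in HSC4 than in SAS by 1.01 ± 0.10 (edgeR adjusted p = 0.00142). The log2 fold change in HSC3 against HSC4 was 0.01 ± 0.10 (edgeR adjusted p = 0.964). Its value in HPLM against DMEM was 0.03 ± 0.08 (edgeR adjusted p = 0.924).

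The α3 and β3 chains were unequal in RNA level. The ratio of LAMA3 to LAMB3 was 0.261 in HPLM and 0.357 in DMEM in HSC3, 0.515 in HPLM and 0.6 in DMEM in HSC4, and 0.239 in HPLM and 0.353 in DMEM in SAS, so LAMA3 was the lower of the pair in every library.

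**Figure D4:**
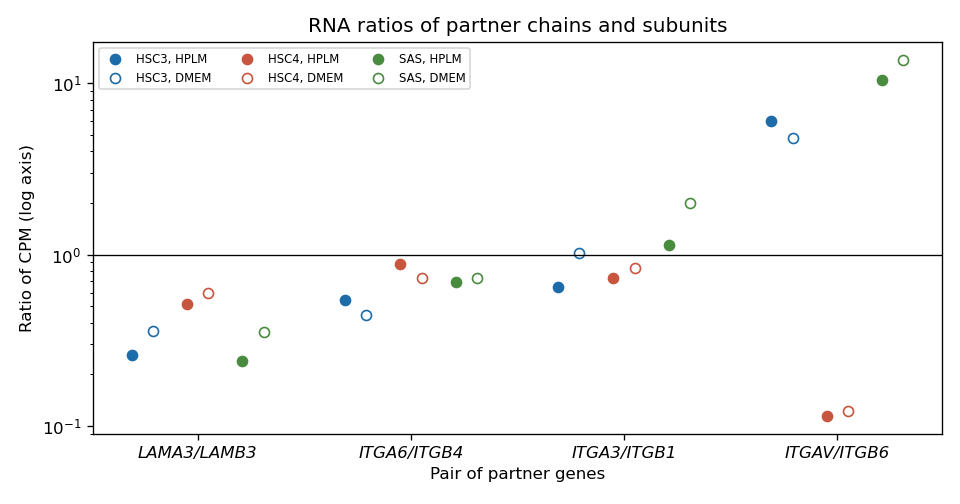
Ratio of CPM between partner chains or subunits (log axis) in the 6 libraries, with filled circles for HPLM, open circles for DMEM and a line at equal levels. The ratio of ITGAV to ITGB6 lies below 1 in HSC4 and above 1 in HSC3 and SAS.

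LAMA3 and LAMB3 were both lowest in SAS, as were ITGA6, ITGB4, ITGB1 and ITGB6. How many of all genes were lowest in SAS was not counted, so the pattern is not read as particular to these genes. Promoter windows of the laminin genes alone are printed. Each is 250 bases ending just before a transcript start in RefSeq (GRCh38.p14), read 5′ to 3′ on the gene's strand. Capitals mark the AP-1 motif TGANTCA, which reads the same on both strands.
LAMA3, chr18:23872770-23873019, plus strand: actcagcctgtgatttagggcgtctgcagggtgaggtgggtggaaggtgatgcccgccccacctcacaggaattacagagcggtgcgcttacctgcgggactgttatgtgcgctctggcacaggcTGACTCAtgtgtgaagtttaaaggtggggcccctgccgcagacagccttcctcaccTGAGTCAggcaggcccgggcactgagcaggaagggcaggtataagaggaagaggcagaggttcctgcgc
LAMB3 downstream start, chr1:209651375-209651624, minus strand: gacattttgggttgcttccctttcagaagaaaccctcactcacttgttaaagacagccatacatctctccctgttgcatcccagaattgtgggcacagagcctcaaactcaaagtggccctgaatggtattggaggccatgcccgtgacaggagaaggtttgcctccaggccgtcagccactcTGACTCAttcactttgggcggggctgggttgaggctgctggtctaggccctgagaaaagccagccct
LAMB3 upstream start, chr1:209652426-209652675, minus strand: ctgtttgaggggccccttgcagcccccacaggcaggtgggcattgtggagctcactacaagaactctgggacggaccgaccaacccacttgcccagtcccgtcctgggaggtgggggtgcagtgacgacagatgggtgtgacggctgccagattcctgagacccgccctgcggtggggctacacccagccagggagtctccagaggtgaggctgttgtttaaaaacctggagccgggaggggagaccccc
The LAMA3 window held 2 matches, beginning 125 and 69 bases before the RefSeq start. The GENCODE 29 start of the main short transcript, at 23872840, lies inside the window and upstream of both matches, so they fall within that transcript's first exon. The LAMB3 window at the downstream start held 1 match, beginning 67 bases before it, and the upstream one held none. A further LAMB3 window, chr1:209652330-209652579, overlaps the upstream one, is not printed and held no match. Of 35116 promoters of that length in RefSeq, 6.573% held the motif. The 2 LAMB3 transcripts that begin at or near the downstream start include 1 short fragment in the annotation. They made between 4.38% and 7.55% of the transcripts from these LAMB3 starts. Promoter windows were matched for 7 of the 9 genes. ITGA3 and ITGB4 had no entry. The windows of ITGA2, ITGA6, ITGAV, ITGB1 and ITGB6 held no AP-1 match. Of these genes ITGA6, ITGB1 and ITGB6 were lowest in SAS, and ITGA2 and ITGAV were not. Whether the motif goes with being lowest in SAS was not tested. A match is a description of letters, and no binding was measured.

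ITGA6 encodes α6, the laminin-binding subunit of the hemidesmosome receptor, and lies on chromosome 2, 172427354 to 172506282 (plus strand). ITGA6 had 238 CPM in HPLM and 227 CPM in DMEM in HSC3, 169 CPM in HPLM and 164 CPM in DMEM in HSC4, and 70.6 CPM in HPLM and 128 CPM in DMEM in SAS. HSC3 was highest, then HSC4, then SAS, with no overlap. ITGA6 was higher in HSC3 than in SAS by 1.27 ± 0.24 (SE; edgeR adjusted p = 0.00969) and higher in HSC4 than in SAS by 0.79 ± 0.24 (edgeR adjusted p = 0.0424). Without SAS HPLM these values were 0.83, still called (edgeR adjusted p = 0.0233), and 0.34, not called (edgeR adjusted p = 0.167). The call in HSC4 against SAS was also lost without HSC4 DMEM, at 1.03 (edgeR adjusted p = 0.081), and without HSC4 HPLM, at 0.58 (edgeR adjusted p = 0.217). Without SAS DMEM its value was 1.27 (edgeR adjusted p = 0.0103). The log2 fold change in HSC3 against HSC4 was 0.48 ± 0.23 (edgeR adjusted p = 0.158), and it was called without SAS DMEM (edgeR adjusted p = 0.0313) and without SAS HPLM (0.029). Its value in HPLM against DMEM was −0.24 ± 0.19 (edgeR adjusted p = 0.715). The ratio was 0.07 in HSC3, 0.04 in HSC4 and −0.85 in SAS, so the difference lay in 1 line, and without SAS the estimate was 0.05 (edgeR adjusted p = 0.949).

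ITGA6 has alternative cytoplasmic tails, α6A and α6B. The ends of the coding sequence that tell them apart are printed on the plus strand of GRCh38 (GENCODE 29), with the stop codon in capitals. The α6A transcript holds an extra 130-base exon and its coding sequence ends within it, and the α6B transcript skips that exon.
ITGA6, α6A, chr2:172501772-172501879: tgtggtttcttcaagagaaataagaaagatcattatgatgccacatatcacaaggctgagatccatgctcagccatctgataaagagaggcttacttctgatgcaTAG
ITGA6, α6B, chr2:172504091-172504252: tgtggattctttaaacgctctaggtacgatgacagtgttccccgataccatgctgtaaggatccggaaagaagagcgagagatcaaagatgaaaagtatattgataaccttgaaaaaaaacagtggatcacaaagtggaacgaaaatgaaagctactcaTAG
Of these 2 transcripts together, α6B made 22.2% in HPLM and 28.3% in DMEM in HSC3, 27.4% in HPLM and 20% in DMEM in HSC4, and 25.7% in HPLM and 27.2% in DMEM in SAS. The α6A form was the larger in every library, and the direction between media differed between lines.

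ITGB4 encodes β4, whose long cytoplasmic tail binds plectin, and lies on chromosome 17, 75721328 to 75757818 (plus strand). It overlaps GALK1 on the opposite strand. ITGB4 had 438 CPM in HPLM and 514 CPM in DMEM in HSC3, 192 CPM in HPLM and 225 CPM in DMEM in HSC4, and 102 CPM in HPLM and 176 CPM in DMEM in SAS. The lines did not overlap. ITGB4 was higher in HSC3 than in HSC4 by 1.19 ± 0.17 (SE; edgeR adjusted p = 0.00395) and higher in HSC3 than in SAS by 1.82 ± 0.17 (edgeR adjusted p = 0.00118). It was higher in HSC4 than in SAS by 0.63 ± 0.17 (edgeR adjusted p = 0.0274), a call lost without HSC4 DMEM, at 0.79 (edgeR adjusted p = 0.0644), without HSC4 HPLM, at 0.49 (edgeR adjusted p = 0.156), and without SAS HPLM, at 0.34 (edgeR adjusted p = 0.166). For HPLM against DMEM the log2 fold change was −0.41 ± 0.14 (edgeR adjusted p = 0.423), with lower values in HPLM in 3 of 3 lines, and without SAS it was −0.23 (edgeR adjusted p = 0.72).

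The ratio of ITGA6 to ITGB4 was 0.543 in HPLM and 0.442 in DMEM in HSC3, 0.882 in HPLM and 0.732 in DMEM in HSC4, and 0.696 in HPLM and 0.728 in DMEM in SAS. With all transcripts counted, ITGB4 was thus the higher of the pair in every library. In HSC4 in HPLM, the long coding transcripts of ITGB4 made 48.06%, 15.97%, 4.711% and 4.089% of its level. There α6A and α6B made 63.73% and 24.07% of the ITGA6 level. On these transcripts alone ITGA6 would be the higher in that library, and ITGB4 in the rest. Among the 4 long coding transcripts of ITGB4, the one with an extra 210-base exon made between 3.58% and 6.5%, and the one with an extra 159-base exon between 4.1% and 8.13%.

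ITGA3 encodes α3, the laminin-binding partner of β1, and lies on chromosome 17, 50055968 to 50090481 (plus strand). ITGA3 had 455 CPM in HPLM and 657 CPM in DMEM in HSC3, 251 CPM in HPLM and 310 CPM in DMEM in HSC4, and 257 CPM in HPLM and 467 CPM in DMEM in SAS. HPLM was the lower medium in every line. Among lines SAS overlapped with both HSC3 and HSC4, and both HSC3 libraries were above those of HSC4. Between HPLM and DMEM the log2 fold change was −0.57 ± 0.12 (SE; edgeR adjusted p = 0.362). DESeq2 gave an adjusted p of 0.00326. Over 13 alternatives the fold change lay between −0.70 and −0.42 and the adjusted p between 0.00326 and 1.

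ITGA3 was higher in HSC3 than in HSC4 by 0.96 ± 0.15 (SE; edgeR adjusted p = 0.00545) and higher in HSC3 than in SAS by 0.65 ± 0.15 (edgeR adjusted p = 0.0181). The second call was lost without HSC3 DMEM, at 0.68 (edgeR adjusted p = 0.0689), without HSC3 HPLM, at 0.63 (edgeR adjusted p = 0.0778), and without SAS HPLM, at 0.43 (edgeR adjusted p = 0.125). In HSC4 against SAS the log2 fold change was −0.31 ± 0.15 (edgeR adjusted p = 0.141).

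ITGA3 also has alternative tails, α3A and α3B. They are printed in the same way, on the plus strand with the stop codon in capitals. The α3A transcript holds an extra 142-base exon, and the α3B transcript skips it.
ITGA3, α3A, chr17:50088225-50088335: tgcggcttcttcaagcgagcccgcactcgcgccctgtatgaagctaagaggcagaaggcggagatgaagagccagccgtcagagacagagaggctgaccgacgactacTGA
ITGA3, α3B, chr17:50089110-50089265: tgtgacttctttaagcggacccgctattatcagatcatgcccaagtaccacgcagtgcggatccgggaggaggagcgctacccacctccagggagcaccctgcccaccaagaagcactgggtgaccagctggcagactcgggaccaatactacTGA
Of these 2 transcripts together, α3B made 0.833% in HPLM and 0.582% in DMEM in HSC3, 0.275% in HPLM and 0.365% in DMEM in HSC4, and 0.409% in HPLM and 0.508% in DMEM in SAS. Nearly all of the pair was α3A, whereas ITGA6 gave at least 20% to its form without the extra exon.

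**Figure D5:**
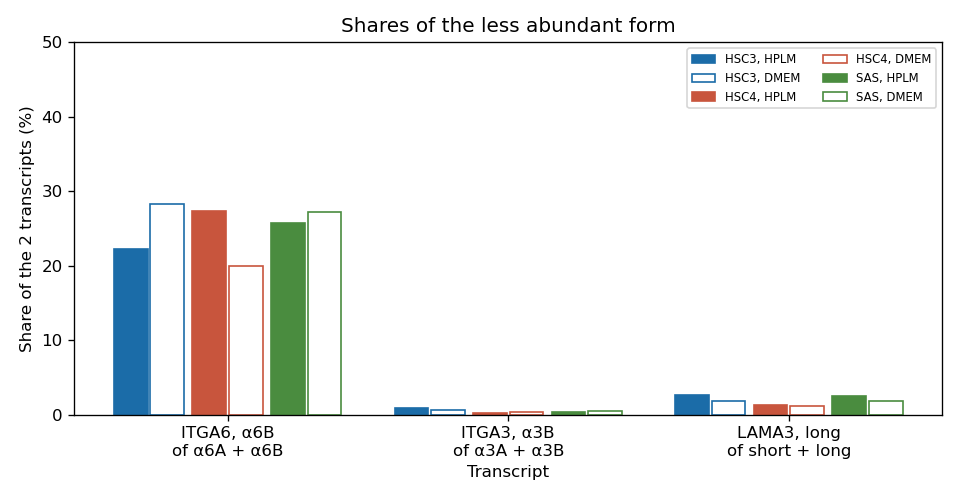
Share of the less abundant of a pair of transcripts (percent) in the 6 libraries, with filled bars for HPLM and open bars for DMEM. α6B lies between 20% and 28.3%, the long form of LAMA3 between 1.22% and 2.63%, and α3B between 0.275% and 0.833%.

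ITGB1 encodes β1, the common partner of α2, α3 and many other α subunits, and lies on chromosome 10, 32900319 to 33005792 (minus strand). ITGB1 had 700 CPM in HPLM and 647 CPM in DMEM in HSC3, 342 CPM in HPLM and 370 CPM in DMEM in HSC4, and 227 CPM in HPLM and 234 CPM in DMEM in SAS. The lines did not overlap. ITGB1 was higher in HSC3 than in HSC4 by 0.92 ± 0.11 (SE; edgeR adjusted p = 0.0024) and higher in HSC3 than in SAS by 1.55 ± 0.11 (edgeR adjusted p = 0.000628). It was higher in HSC4 than in SAS by 0.63 ± 0.11 (edgeR adjusted p = 0.00663), a call lost without HSC4 DMEM (edgeR adjusted p = 0.0512), without SAS DMEM (0.0502) and without SAS HPLM (0.058). The log2 fold change in HPLM against DMEM was −0.01 ± 0.09 (edgeR adjusted p = 0.973).

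The ratio of ITGA3 to ITGB1 was 0.649 in HPLM and 1.02 in DMEM in HSC3, 0.733 in HPLM and 0.839 in DMEM in HSC4, and 1.14 in HPLM and 2 in DMEM in SAS. In each line the ratio was lower in HPLM. Transcripts annotated as protein-coding gave between 66.48% and 75.09% of ITGA3 and between 90.63% and 97.91% of ITGB1. The ratio would therefore be lower in every library if those transcripts alone were counted, so its side of 1 depends on the transcripts included.

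ITGA2 encodes α2, which pairs with β1 as a collagen receptor, and lies on chromosome 5, 52989326 to 53094779 (plus strand). ITGA2 had 44.4 CPM in HPLM and 49.6 CPM in DMEM in HSC3, 77.2 CPM in HPLM and 71.2 CPM in DMEM in HSC4, and 75.7 CPM in HPLM and 82.0 CPM in DMEM in SAS. Both HSC3 libraries were the lowest, and HSC4 and SAS overlapped. ITGA2 was lower in HSC3 than in HSC4 by −0.66 ± 0.12 (SE; edgeR adjusted p = 0.00914), a call lost without HSC3 HPLM (edgeR adjusted p = 0.071) and without HSC4 HPLM (0.0614). It was lower in HSC3 than in SAS by −0.75 ± 0.12 (edgeR adjusted p = 0.00567). In HSC4 against SAS the log2 fold change was −0.09 ± 0.12 (edgeR adjusted p = 0.596), and in HPLM against DMEM it was −0.05 ± 0.10 (edgeR adjusted p = 0.895). ITGA2 was the 1 gene of the 9 called lower in HSC3 than in both other lines. The share of all genes called so in both pairs was not counted.

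ITGB6 encodes β6, an epithelial subunit that pairs with αv, and lies on chromosome 2, 160099666 to 160200313 (minus strand). ITGB6 had 5.95 CPM in HPLM and 7.64 CPM in DMEM in HSC3, 36.9 CPM in HPLM and 50.02 CPM in DMEM in HSC4, and 2.28 CPM in HPLM and 2.26 CPM in DMEM in SAS. HSC4 stood far above the other lines. ITGB6 was higher in HSC4 than in SAS by 4.24 ± 0.18 (SE; edgeR adjusted p = 0.000269), which is 18.9-fold. It was lower in HSC3 than in HSC4 by −2.67 ± 0.16 (edgeR adjusted p = 0.000613) and higher in HSC3 than in SAS by 1.57 ± 0.19 (edgeR adjusted p = 0.00229). For HPLM against DMEM the log2 fold change was −0.32 ± 0.14 (edgeR adjusted p = 0.517).

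ITGAV encodes αv, which pairs with β6 and with β1, β3, β5 and β8, and lies on chromosome 2, 186590065 to 186680901 (plus strand). ITGAV had 36.0 CPM in HPLM and 36.6 CPM in DMEM in HSC3, 4.21 CPM in HPLM and 6.16 CPM in DMEM in HSC4, and 23.6 CPM in HPLM and 30.8 CPM in DMEM in SAS. HSC4 was far below the other lines, the reverse of ITGB6. ITGAV was higher in HSC3 than in HSC4 by 2.82 ± 0.18 (SE; edgeR adjusted p = 0.000613). It was lower in HSC4 than in SAS by −2.39 ± 0.18 (edgeR adjusted p = 0.000646). In HSC3 against SAS the log2 fold change was 0.43 ± 0.16 (edgeR adjusted p = 0.0741), and in HPLM against DMEM it was −0.29 ± 0.13 (edgeR adjusted p = 0.544).

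The ratio of ITGAV to ITGB6 was 6.05 in HPLM and 4.79 in DMEM in HSC3, 0.114 in HPLM and 0.123 in DMEM in HSC4, and 10.4 in HPLM and 13.6 in DMEM in SAS. In HSC4 the αv RNA was thus the lower of the pair, and in the other lines the higher. ITGAV transcripts annotated as protein-coding gave between 58.65% and 97.95% of the gene's level.

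Other subunits that pair with these were read from a list of 19 integrin genes, of which 11 were tested. None was called in HPLM against DMEM, with a median log2 fold change of −0.17. In HSC3 against HSC4 1 was called higher and 4 lower, in HSC3 against SAS 1 higher and 2 lower, and in HSC4 against SAS 3 higher and none lower. The medians were −0.92, 0.22 and 0.01, and 37.4%, 39.4% and 41.3% of all genes tested were called in those pairs. ITGA5, the fibronectin receptor subunit, had 38.2 CPM in HPLM and 25.9 CPM in DMEM in HSC3, 99.2 CPM in HPLM and 82.6 CPM in DMEM in HSC4, and 29.4 CPM in HPLM and 25 CPM in DMEM in SAS, and was higher in HSC4 than in SAS by 1.74 ± 0.13 (SE; edgeR adjusted p = 0.000715). ITGB8, another partner of αv, was also higher in HSC4 than in SAS, by 2.48 ± 0.39 (edgeR adjusted p = 0.00512). ITGB5, a further αv partner, was lower in HSC3 than in SAS by −1.32 ± 0.19 (edgeR adjusted p = 0.00403). ITGA4 was at 0 in both HSC3 libraries, with 11.3 CPM in HPLM and 14.9 CPM in DMEM in HSC4 and 10.6 CPM in HPLM and 15.7 CPM in DMEM in SAS.

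Of 9 other laminin chain genes, 7 were tested. None was called in HPLM against DMEM, with a median of −0.11. In HSC3 against HSC4 1 was higher and 2 lower, in HSC3 against SAS none was higher and 2 were lower, and in HSC4 against SAS 2 were higher and 2 lower. The medians were −0.71, −0.46 and −0.49, and 37.4%, 39.4% and 41.3% of all genes tested were called in those pairs. LAMA5, the α chain of laminins widespread in epithelia, was higher in HSC4 than in SAS by 0.87 ± 0.13 (SE; edgeR adjusted p = 0.00426). LAMB1 was lower in HSC4 than in SAS by −1.26 ± 0.12 (edgeR adjusted p = 0.00117), the opposite direction to LAMB3.

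All 5 hemidesmosome and anchoring partners were tested. None was called in HPLM against DMEM, with a median of −0.31. In HSC3 against HSC4, in HSC3 against SAS and in HSC4 against SAS 2 were called higher and 1 lower each time. The medians were 0.25, 0.14 and −0.10, and 37.4%, 39.4% and 41.3% of all genes tested were called. COL17A1, the transmembrane collagen of hemidesmosomes, had 86.5 CPM in HPLM and 139 CPM in DMEM in HSC3, 132 CPM in HPLM and 126 CPM in DMEM in HSC4, and 18.6 CPM in HPLM and 39.8 CPM in DMEM in SAS, so it was lowest in SAS, as ITGA6 and ITGB4 were. DST, whose epithelial product links β4 to keratin, was higher in HSC3 than in SAS by 1.39 ± 0.13 (SE; edgeR adjusted p = 0.00129). PLEC, the gene of plectin, was lower there by −0.56 ± 0.12 (edgeR adjusted p = 0.0136). CD151, a tetraspanin bound to laminin-binding integrins, had 280 CPM in HPLM and 236 CPM in DMEM in HSC3, 177 CPM in HPLM and 165 CPM in DMEM in HSC4, and 286 CPM in HPLM and 251 CPM in DMEM in SAS, and was lower in HSC4 than in SAS by −0.65 ± 0.10 (edgeR adjusted p = 0.00528).

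The 8 genes that spanned at least 1 log2 unit over the 6 libraries were compared with 8172 genes, each gene itself being set aside. The most alike were found by the root mean square difference of centred log2 CPM. ITGB1 was nearest to BCL2L13, at 0.0437, and LAMB3 to MIS12, at 0.0606. ITGA6 was nearest to TMEM44, at 0.108, and then to DSP, the gene of desmoplakin, at 0.123. ITGB4 was nearest to SFN, at 0.124, LAMA3 to VPS16, at 0.129, ITGA3 to TINAGL1, at 0.14, ITGAV to SERINC2, at 0.16, and ITGB6 to DPYD, at 0.25. Among pairs of the 9 genes, ITGB1 and ITGB4 were the closest, at 0.273, and ITGAV and ITGB6 the farthest apart, at 2.87. These values describe 6 libraries of 3 lines and carry no test.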

How the data were processed

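For the 6 libraries the authors deposited expected counts by transcript, which they call scaled TPM. Such values are estimated counts corrected for transcript length, not reads, so no counting interval is given. Per the labels' protocols, libraries were strand-specific and from poly(A) RNA. Per the submitters' processing notes, FastQC, kallisto and hg38 were used. The sources used here do not give versions, annotation or use of strand. The spans of 6 of the 9 genes are overlapped by a gene on the opposite strand. Overlap of exons was not checked, and reads from overlapping exons cannot be told apart without strand. The names of the DMEM columns hold the line and an unexplained ending, without the medium.

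The table held 161149 rows. The 1312 repeated rows were counted once, 6878 transcripts without a symbol were left out, and the rest were summed to symbols and rounded to whole numbers. Columns left unused numbered 0. Genes were kept by filterByExpr (minimum count 10, minimum total 15), scaled by TMM and tested by edgeR's quasi-likelihood test with line and medium as terms (R 4.3.3, edgeR 4.0.16, limma 3.58.1, DESeq2 1.42.0), with 2 residual and 4 prior degrees of freedom and Benjamini-Hochberg adjustment. SE was derived from the fold change and the F statistic, as |log2 fold change| / √F. Ratios per line used a prior count of 2. The same line gave both media, so the line pairs the libraries: their deviations from the medium's mean correlated at 0.779, 0.792 and 0.805.

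Simulated counts were drawn with the same spread for all genes of a given level, and with line and medium as additive terms. They hold no spread particular to a gene and no response to medium that differs between lines. Recovery in the real data may therefore be lower. On simulated counts with 200 genes changed, the medium comparison (12974 genes) called 71.4% of 2-fold and 98.0% of 4-fold changes, with 12 false calls. Recovery was lower between lines: for 2-fold changes 65% in HSC3 against HSC4, 62.2% in HSC3 against SAS and 60.2% in HSC4 against SAS, and for 4-fold changes 91%, 83.5% and 86.9%, with 9, 11 and 5 false calls among 13010, 12993 and 13018 genes.

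The 9 genes and all lists were chosen with earlier results of these data known. Named genes were the 9 and CD151, and from each list up to 4 called genes with the smallest p per comparison or else the 2 smallest with a mean CPM of at least 1, of which a selection is printed. A gene that the rule also names is not reported here and was left out of its list. Alternatives were other scalings, filters, tools, row handling, transcript sets, the fit without the line, and leaving out libraries.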

Additional observations from a re-analysis of the deposited data

Results flagged for a closer look

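For 5 of the 9 genes the ratio of HPLM to DMEM pointed in opposite directions in different lines. The share of all genes with mixed direction was not counted, so 5 of 9 is not read as particular to these genes. Some of the ratios were very small, as in SAS for ITGB6, at 0.01, and LAMB3, at −0.02. Each line has 1 library per medium, so the difference between lines was not tested. ITGA6 was slightly higher in HPLM in HSC3 and lower in SAS, a gap of 0.921 on the log2 scale (HSC3 minus SAS). ITGB6 differed by 0.451 (SAS minus HSC4), ITGA2 by 0.276 (HSC4 minus HSC3), ITGB1 by 0.227 (HSC3 minus HSC4) and LAMB3 by 0.144 (HSC4 minus SAS).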

How the results depend on the processing

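Of 549 fold changes of the 9 genes recomputed under alternatives, 518 kept direction and side of the threshold, 15 lost the call, 4 gained it and 12 changed sign. In HPLM against DMEM, DESeq2 called 1 of the 9 genes. Leaving out 1 library, the number called in HSC4 against SAS lay between 4 and 7. It was 4 without HSC4 DMEM and without SAS HPLM. Calls over all genes fell as well, to 2787 of 13726 without HSC4 DMEM and 3337 of 13845 without SAS HPLM, against 5462 of 13236 with all libraries.

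The changes of sign were all of values not called. In HPLM against DMEM they were LAMB3 at −0.0148 with no scaling factor and −0.0172 without HSC4, ITGB1 at 0.00402 with protein-coding transcripts alone, 0.0216 with no replicate block and 0.028 without HSC4, ITGA2 at 0.000563 without HSC3, and ITGA6 at 0.0529 without SAS. In HSC3 against HSC4 LAMB3 was −0.132 with no scaling factor, −0.00214 without HSC3 DMEM and −0.0743 without HSC4 DMEM. In HSC4 against SAS ITGA2 was 0.0612 with no scaling factor and 0.0607 without HSC4 DMEM. With no scaling factor the median of all genes moved to −0.13 in HSC3 against HSC4 and 0.16 in HSC4 against SAS. Without the replicate block, that is without the pairing by line, 0 of the 9 genes and 0 genes in all were called between media, 59 genes having an unadjusted p under 0.05 in edgeR.

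In HSC4 against SAS ITGA6 also lost its call with no filter on low counts (edgeR adjusted p = 0.0642). Levels near those of ITGB6 in SAS, about 2.28 CPM, rest on few estimated counts.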

Other observations

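Among other ligands of these integrins, COL4A1 and COL4A2, the type IV collagen genes listed, were near 0 in HSC3 alone of the 3 lines. COL4A2, a type IV collagen chain of basement membranes, had 0.308 CPM in HPLM and 0.105 CPM in DMEM in HSC3, 104 CPM in HPLM and 89.2 CPM in DMEM in HSC4, and 89.4 CPM in HPLM and 87.2 CPM in DMEM in SAS. COL4A1, its partner chain, had 0.359 CPM in HPLM and 0.681 CPM in DMEM in HSC3, 38.6 CPM in HPLM and 34.8 CPM in DMEM in HSC4, and 39.8 CPM in HPLM and 37.6 CPM in DMEM in SAS. FN1, the gene of fibronectin, was lower in HSC3 than in SAS by −3.91 ± 0.31 (SE; edgeR adjusted p = 0.000805). The share called over all genes tested was 37.4% in HSC3 against HSC4, 39.4% in HSC3 against SAS and 41.3% in HSC4 against SAS. Of 14 ligands of these integrins 10 were tested. None was called in HPLM against DMEM (median 0.06), 1 was higher and 4 lower in HSC3 against HSC4 (median −1.39), 2 higher and 4 lower in HSC3 against SAS (−0.12), and 4 higher and none lower in HSC4 against SAS (0.67).

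Of 6 proteases that can process laminin-332 5 were tested. None was called in HPLM against DMEM (median −0.09), 1 was higher and none lower in HSC3 against HSC4 (−0.25), 3 higher and 1 lower in HSC3 against SAS (0.91), and 3 higher and 1 lower in HSC4 against SAS (1.14). MMP14, a membrane-bound matrix metalloproteinase, was higher in HSC3 than in SAS by 1.29 ± 0.16 (SE; edgeR adjusted p = 0.00238), and MMP2 was lower there by −1.82 ± 0.33 (edgeR adjusted p = 0.00835). All 16 integrin adaptors were tested, with none called in HPLM against DMEM (median 0.04), 6 higher and 4 lower in HSC3 against HSC4 (0.32), 3 higher and 3 lower in HSC3 against SAS (0.25), and 5 higher and 5 lower in HSC4 against SAS (−0.02). ILK, integrin-linked kinase, was higher in HSC3 than in SAS by 1.59 ± 0.11 (edgeR adjusted p = 0.000622), and PTK2, focal adhesion kinase, was lower there by −0.96 ± 0.12 (edgeR adjusted p = 0.00234). All 6 tetraspanins and other lateral partners were tested, with none called in HPLM against DMEM (median 0.00), 1 higher and 2 lower in HSC3 against HSC4 (−0.31), 1 higher and 1 lower in HSC3 against SAS (0.12), and 2 higher and none lower in HSC4 against SAS (0.29). CD82 was higher in HSC4 than in SAS by 3.08 ± 0.21 (edgeR adjusted p = 0.0006). Beside the counts for proteases, adaptors and lateral partners, the shares of all genes called in the same pairs of lines were 37.4%, 39.4% and 41.3%.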
